A study of Mus musculus with 6 samples.

Results

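Complex I, the NADH:ubiquinone oxidoreductase of the mitochondrial inner membrane, is built in part from subunits encoded by nuclear genes named Nduf. The genes described here were the rows of the deposited count table whose symbol begins with Nduf, then a, b, c, s or v, then a digit. This gave 37 genes of the 23420 in the table, of which 36 were among the 14903 genes with enough counts to test. Among them are Ndufa4 and Ndufa4l2, which match the name pattern but are not stable complex I subunits. All the genes were read in pancreatic islets of C57BL/6J mice that carried a gastric infusion for 9 days, a model of overfeeding-induced obesity (OIO). The OIO mice received Ensure, a liquid nutrition formula, at 13 to 18.5 kcal per day, and the Control mice received saline by the same route for the same time. Strain, route and duration were thus shared by both groups, and the labels give no transgene, drug, age or sex. There were 3 OIO libraries and 3 Control libraries of poly(A) RNA, with 20968058 to 48178375 counts each. The labels do not say whether each library came from a separate mouse or a pool, so the p-values below measure only the spread between these libraries. Islets are a mix of endocrine and other cells read in bulk, in which a change in the share of a cell type and a change in RNA per cell cannot be told apart.

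Complex I takes electrons from NADH and passes them through a flavin and a chain of iron-sulfur clusters to ubiquinone, and this transfer drives protons across the inner membrane. It is L-shaped. A matrix arm holds the NADH module, where NADH is oxidised, and the quinone module, where ubiquinone is reduced, and a membrane arm, with a proximal and a distal part, holds the proton pumps. The catalytic core subunits of the matrix arm are nuclear genes, those of the membrane arm are encoded by mitochondrial DNA and were not analysed here, and accessory subunits surround both. In beta cells, NADH from glucose oxidation feeds this chain, and the ATP it yields closes potassium channels and so couples glucose to insulin release.

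In OIO islets 10 of the 36 tested complex I genes were higher than in Control islets and 0 were lower, at an adjusted p under 0.05 (edgeR's quasi-likelihood test, Benjamini-Hochberg over all 14903 genes). Over all genes tested, 4.54% were called higher and 2.84% lower. The sizes were modest. The median log2 fold change of the 36 genes was 0.19, against -0.01 for all genes tested, and the range was 0.02 to 0.43. The fitted value was above 0 in 36 of 36 members, against 47.5% of all genes. At an unadjusted p under 0.05, 23 members were higher, against 11.8% of all genes, and 0 were lower. DESeq2 called 11 higher (6.06% of all genes) and 0 lower, and limma voom 7 higher (4.29% of all genes) and 0 lower. In 24 members the lowest OIO library lay above the highest Control library, which held for 14.1% of all genes, in 12 the groups overlapped, and in 0 every OIO library lay below. The called genes were Ndufa1, Ndufc2, Ndufb7, Ndufc1, Ndufa13, Ndufa4, Ndufb8, Ndufa11, Ndufa5 and Ndufa8. None is a catalytic core subunit, 8 of the 10 belong to the membrane arm, and Ndufa4 is not a stable subunit of the complex. Leaving out 1 library lowered the count of members to 6, 2 and 3 without OIO 1, 2 and 3, and to 5, 5 and 7 without Control 1, 2 and 3, while 2.23% to 3.70% of all genes were called higher. Ndufa1 and Ndufc2 were called in each of these 6 fits, Ndufb7 in 4, Ndufc1, Ndufa13, Ndufa4 and Ndufb8 in 2 each, Ndufa5 in 1, and Ndufa11 and Ndufa8 in 0. Transcript length and scaling changed the count too. With a smooth on the length of each gene's principal transcript 3 members were called, against 3.56% of all genes, and with library size as the only scaling 5 were, against 3.34%.

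The promoters of 4 called genes and of 1 core subunit outside the calls are printed for their sequence. They were taken from RefSeq (GRCm38.p6), cover 250 bases before and 50 after the annotated start, and are printed 5′ to 3′ on the gene's strand in lower case. The 2 genes of lowest p, Ndufa1 and Ndufc2, are shown because their calls were the most stable, Ndufb7 and Ndufc1 because each holds a searched motif, and Ndufv1 as the NADH-binding core subunit with a log2 fold change near 0. Capitals mark a motif, CCGGAAG of the ETS family in Ndufb7 and AANATGGCG of YY1 in Ndufc1. The windows are chrX:37191189-37191488 on the minus strand for Ndufa1, chr7:97399753-97400052 on the plus strand for Ndufc2, chr8:83566508-83566807 on the plus strand for Ndufb7, chr3:51408906-51409205 on the minus strand for Ndufc1 and chr19:4012706-4013005 on the minus strand for Ndufv1.
Ndufa1: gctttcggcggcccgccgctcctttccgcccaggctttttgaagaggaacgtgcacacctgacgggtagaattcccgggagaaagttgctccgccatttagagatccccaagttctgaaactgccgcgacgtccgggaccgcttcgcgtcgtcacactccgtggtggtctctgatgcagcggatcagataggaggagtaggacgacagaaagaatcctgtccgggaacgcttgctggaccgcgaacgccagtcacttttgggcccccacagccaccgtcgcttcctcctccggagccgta
Ndufc2: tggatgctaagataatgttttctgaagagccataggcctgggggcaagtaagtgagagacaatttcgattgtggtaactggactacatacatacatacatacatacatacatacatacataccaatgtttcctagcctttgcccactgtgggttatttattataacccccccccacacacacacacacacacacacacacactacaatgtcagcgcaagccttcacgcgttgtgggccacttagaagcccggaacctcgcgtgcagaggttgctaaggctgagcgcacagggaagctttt
Ndufb7: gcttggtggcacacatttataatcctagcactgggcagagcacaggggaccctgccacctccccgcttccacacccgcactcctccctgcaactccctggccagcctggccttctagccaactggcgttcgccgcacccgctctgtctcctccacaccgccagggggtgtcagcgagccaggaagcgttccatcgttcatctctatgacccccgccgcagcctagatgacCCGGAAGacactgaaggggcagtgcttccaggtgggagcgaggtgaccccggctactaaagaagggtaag
Ndufc1: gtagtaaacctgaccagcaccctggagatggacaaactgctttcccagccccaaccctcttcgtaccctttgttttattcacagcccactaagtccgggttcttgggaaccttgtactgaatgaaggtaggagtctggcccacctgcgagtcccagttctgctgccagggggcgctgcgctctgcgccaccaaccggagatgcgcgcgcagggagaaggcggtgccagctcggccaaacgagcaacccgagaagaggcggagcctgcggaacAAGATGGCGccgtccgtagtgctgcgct
Ndufv1: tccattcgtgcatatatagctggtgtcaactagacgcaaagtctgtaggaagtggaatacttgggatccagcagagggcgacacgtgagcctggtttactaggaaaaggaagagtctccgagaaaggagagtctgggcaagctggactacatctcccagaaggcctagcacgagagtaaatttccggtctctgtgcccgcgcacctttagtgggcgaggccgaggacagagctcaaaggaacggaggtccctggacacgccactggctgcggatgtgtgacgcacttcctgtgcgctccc

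The promoter table held 33 promoters for 31 of the 36 tested members. Their median GC content was 59%, against 52.7% over all 32851 promoters, and they held a median of 19 CG dinucleotides, against 7. The letters TATAAA within 40 bases before the start were found in 0 of the 33, against 2.31% of all promoters. Of 4 motifs searched on both strands, AANATGGCG, bound by the regulator YY1, was in 7 of the 33 promoters (21.2%), those of Ndufa7, Ndufa9, Ndufb11, Ndufc1, Ndufs4, Ndufs6 and Ndufs7, and in 2.38% of all promoters. In Ndufc1 it begins 22 bases after the start. GCATGCGC, bound by NRF1, was in 3 (9.09%), those of Ndufa6, Ndufa8 and Ndufa11, against 2.71% of all. CCGGAAG, an ETS-family motif that GABPA binds, was in 4 (12.1%), those of Ndufb6, Ndufb7, Ndufs3 and Ndufs8, against 8.86% of all, and in Ndufb7 it begins 20 bases before the start. TCAAGGTCA, bound by ERR alpha, was in 0 of the 33 and in 0.423% of all. A match describes these letters and is not a shown binding site. The YY1 motif was in 1 called gene, Ndufc1, and in 6 that were not called. The ETS motif was in 1 called gene and the NRF1 motif in 2.

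The proximal membrane arm held most of the calls. Of its 8 tested members 6 were higher in OIO islets, against 4.54% of all genes. In 8 of 8 all 3 OIO values exceeded all 3 Control values, against 14.1% of all genes. Its median log2 fold change was 0.27. With the smooth on principal transcript length 2 of the 8 stayed called. Levels below are CPM, the count over the library's total in megareads, with totals adjusted by edgeR's TMM factors, in libraries OIO 1, 2 and 3 and Control 1, 2 and 3. Ndufa1, a small single-pass membrane subunit that assembly of the complex needs, had 75.5, 80.1 and 82.6 CPM in OIO islets, against 57.5, 59.1 and 63.6 CPM in Control islets. The groups were well apart, with the lowest OIO library above the highest Control library. Its means were 79.4 ± 3.62 CPM in OIO islets and 60.1 ± 3.19 CPM in Control islets (SD, n = 3 each), a log2 fold change of 0.40 (SE 0.06, edgeR adjusted p = 0.0047), the lowest p among the members. Ndufc2, an accessory membrane subunit, had 83.1, 74.6 and 90.4 CPM in OIO islets, against 58.6, 60.1 and 65.5 CPM in Control islets. Here too no library crossed between groups, although the OIO libraries spread more. The means were 82.7 ± 7.90 CPM in OIO islets and 61.4 ± 3.63 CPM in Control islets (SD, n = 3 each), and the log2 fold change of 0.43 (SE 0.08, edgeR adjusted p = 0.010) was the highest of the 36.

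**Figure D1:**
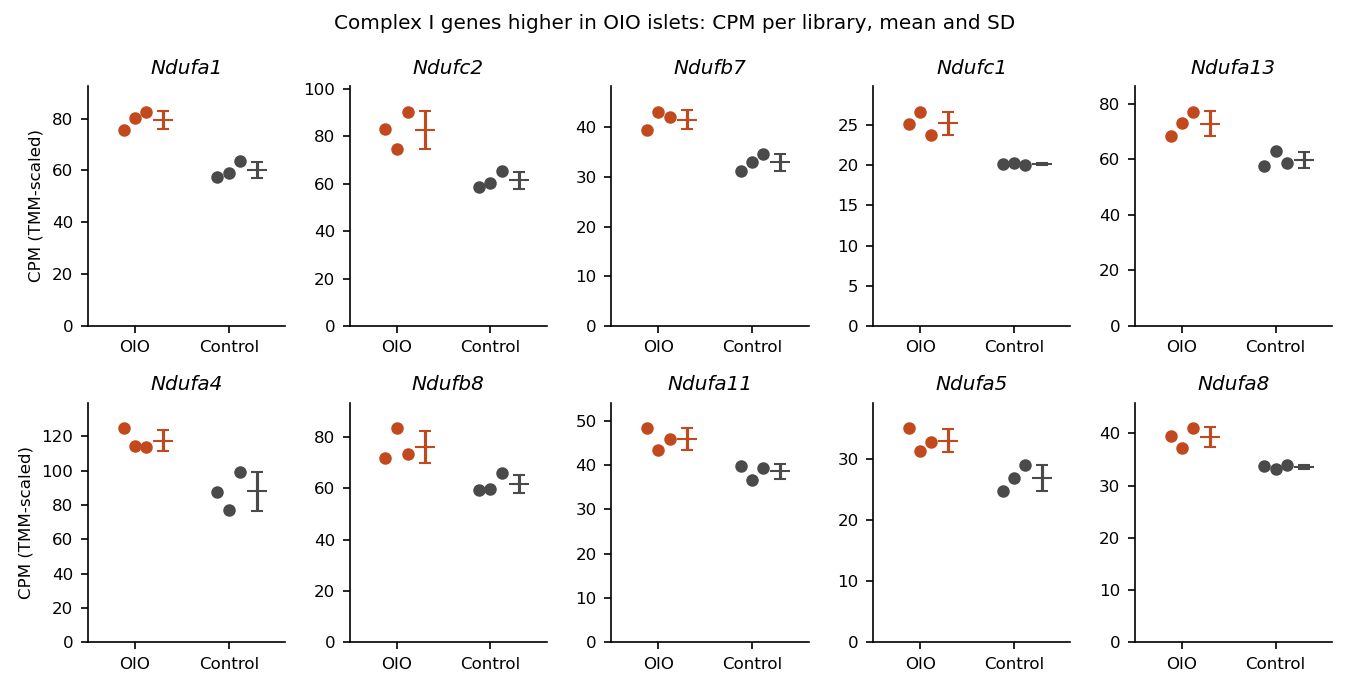
The 10 complex I genes called higher in OIO islets, 1 panel each, with CPM (TMM-scaled) of each library as a point and the mean with SD beside it, OIO left and Control right (n = 3 each). In every panel the 3 OIO points lie above the 3 Control points. Ndufa4 matches the name pattern but is not a stable complex I subunit.

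Ndufc1, a short accessory subunit beside Ndufc2, had 25.1, 26.7 and 23.8 CPM in OIO islets, against 20.1, 20.3 and 19.98 CPM in Control islets. The Control libraries were nearly equal, and each OIO library stood above them. The log2 fold change was 0.33 (SE 0.07, edgeR adjusted p = 0.020). Ndufa13, known as GRIM-19 and also studied in cell death, had 68.3, 73.3 and 77.2 CPM in OIO islets, against 57.7, 63.0 and 58.7 CPM in Control islets. Its groups did not overlap, and its log2 fold change was 0.29 (SE 0.06, edgeR adjusted p = 0.023). Of the 31-base words in its transcripts 33.2% also occur in those of other genes. The gene met most often was Tssk6, which overlaps Ndufa13 and had 1 to 9 counts per library. Ndufa11, which lies where complex III docks in respiratory supercomplexes, had 48.3, 43.5 and 45.9 CPM in OIO islets, against 39.7, 36.7 and 39.3 CPM in Control islets. The highest Control library was within a few CPM of the lowest OIO library, and the log2 fold change was 0.25 (SE 0.06, edgeR adjusted p = 0.040). Ndufa11 shares 12.8% of its words with other genes, most often Ndufa11b. The annotation places Vmac, with 1676 to 4173 counts per library, over Ndufa11. Whether the counting used strand is not stated in the sources used here. Ndufa8, a subunit on the intermembrane-space side held by disulfide bonds, had 39.5, 37.2 and 41.0 CPM in OIO islets, against 33.7, 33.2 and 33.9 CPM in Control islets. Its groups did not overlap, and its log2 fold change of 0.22 (SE 0.06) had the highest adjusted p of the called members (edgeR, 0.049).

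The other proximal members were not called. Ndufa3 averaged 30.1 ± 1.81 CPM in OIO islets and 26.3 ± 3.74 CPM in Control islets (SD, n = 3 each; edgeR adjusted p = 0.30). Ndufa10, whose fold resembles that of nucleoside kinases, had the lowest log2 fold change of this part of the arm, 0.16 (SE 0.06, edgeR adjusted p = 0.12). Ndufs5, the ninth gene of the proximal arm here, was listed at 0 counts in all 6 libraries and could not be tested. In the shallowest library a count of 0 allows up to 0.143 CPM, counting error only. Of the 31-base words of Ndufs5 26.5% also occur in other genes, most often BC002163, which had 1 to 12 counts per library. No level of Ndufs5 is drawn from its 0 counts.

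In the distal membrane arm 2 of 10 members were higher and 0 lower, against 4.54% and 2.84% of all genes. The median was 0.18 on the log2 scale. In 7 of 10 all 3 OIO values exceeded all 3 Control values, against 14.1% of all genes. Ndufb7, on the intermembrane-space side, had 39.4, 43.1 and 42.1 CPM in OIO islets, against 31.1, 33.1 and 34.5 CPM in Control islets. The groups were clear of each other, with a log2 fold change of 0.34 (SE 0.06, edgeR adjusted p = 0.014). Ndufb8, an accessory subunit whose protein is a common marker of assembled complex I, had 71.9, 83.3 and 73.3 CPM in OIO islets, against 59.3, 59.7 and 65.8 CPM in Control islets. OIO 2 was the highest library, no library crossed, and the log2 fold change was 0.31 (SE 0.07, edgeR adjusted p = 0.028). The 8 distal members that were not called, Ndufb2, Ndufb3, Ndufb4, Ndufb5, Ndufb6, Ndufb9, Ndufb10 and Ndufb11, had log2 fold changes of 0.03 to 0.22. Ndufb4 was the lowest of these, at 5.10 ± 0.48 CPM in OIO islets and 4.98 ± 1.27 CPM in Control islets (SD, n = 3 each), with a log2 fold change of 0.03 (SE 0.19, edgeR adjusted p = 0.94). It shares 19.1% of its words with other genes, most often its copy Ndufb4c, so its low level is uncertain.

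**Figure D2:**
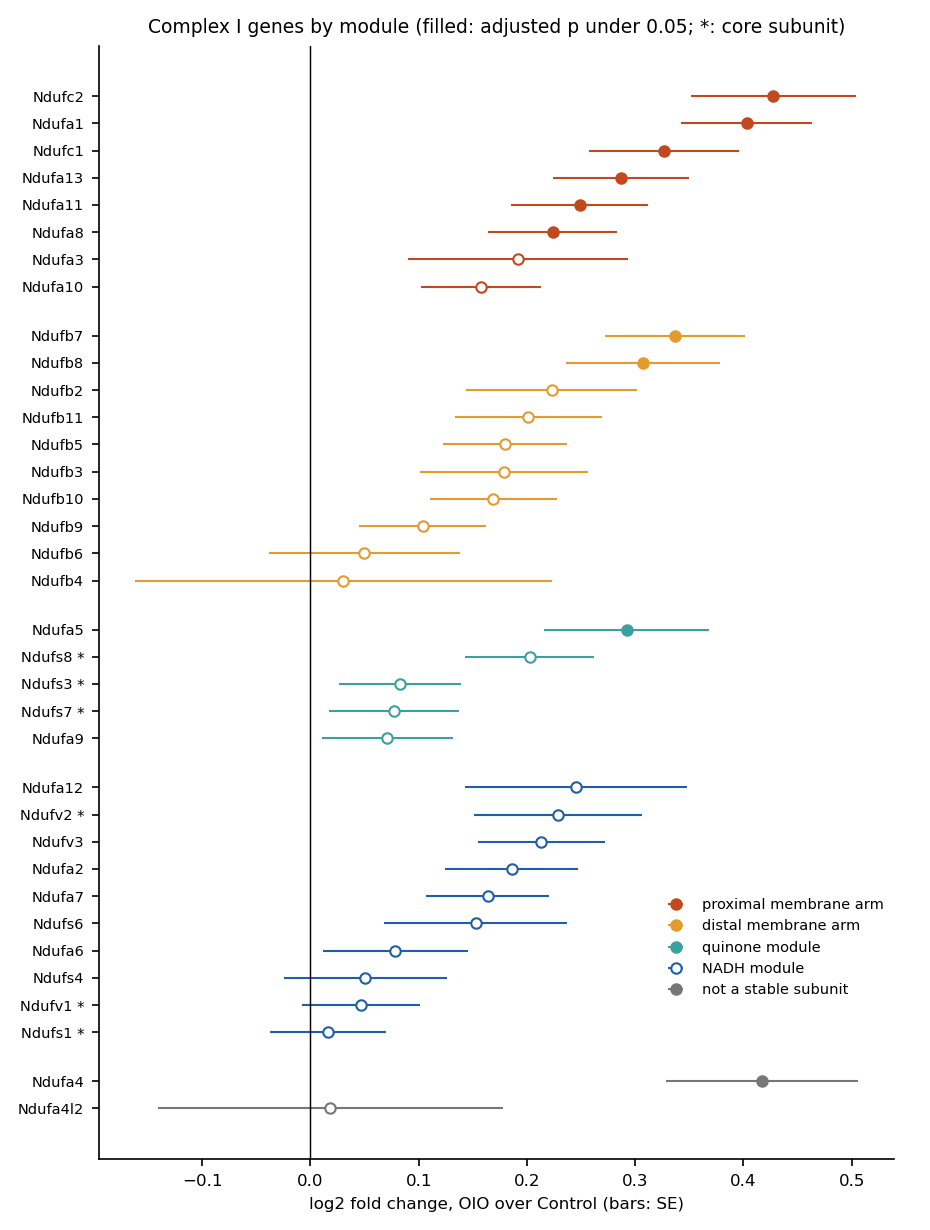
Log2 fold change, OIO over Control, of 35 of the 36 tested complex I genes (bars: SE), grouped by module and ordered by size within each, with filled points called at an adjusted p under 0.05 and core subunits starred. All points lie right of 0, and 8 of the 10 filled ones are in the membrane arm.

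In the quinone module 1 of 6 members was higher, against 4.54% of all genes. Ndufa5, an accessory subunit on the matrix arm, had 35.1, 31.3 and 32.8 CPM in OIO islets, against 24.8, 27.0 and 29.1 CPM in Control islets. The groups did not overlap, and the log2 fold change was 0.29 (SE 0.08, edgeR adjusted p = 0.045). Ndufa9, an accessory subunit beside the quinone channel, had the lowest value here, 0.07 (SE 0.06, edgeR adjusted p = 0.53). Ndufs8, a core subunit that carries iron-sulfur clusters, had 40.2, 37.3 and 38.9 CPM in OIO islets, against 32.4, 34.2 and 34.3 CPM in Control islets. No library crossed, but the test did not pass (log2 fold change 0.20, SE 0.06, edgeR adjusted p = 0.068). Ndufs3, also of the core, had 44.5, 44.1 and 43.1 CPM in OIO islets, against 42.1, 39.7 and 42.6 CPM in Control islets. Ndufs7, a core subunit that holds the cluster next to ubiquinone, had 29.0, 29.9 and 29.3 CPM in OIO islets, against 27.8, 28.6 and 27.3 CPM in Control islets. In both the groups were close without overlap, at a log2 fold change of 0.08 each (SE 0.06 each, edgeR adjusted p = 0.42 for Ndufs3 and 0.48 for Ndufs7).

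In the NADH module 0 of 10 members were called by edgeR, although 5 were higher at an unadjusted p under 0.05, against 11.8% of all genes. DESeq2 called 1 higher and limma voom 0. Ndufv1, which binds NADH and the flavin, had 55.1, 55.2 and 57.9 CPM in OIO islets, against 56.0, 54.0 and 52.9 CPM in Control islets. The groups overlapped, and the log2 fold change was 0.05 (SE 0.05, edgeR adjusted p = 0.66). Ndufs1, the largest subunit, which carries iron-sulfur clusters, had 89.9, 96.5 and 89.7 CPM in OIO islets, against 91.1, 88.9 and 93.2 CPM in Control islets. These values were interleaved, and its log2 fold change of 0.02 (SE 0.05, edgeR adjusted p = 0.90) was the lowest of the 36. Ndufv2, a core subunit that carries an iron-sulfur cluster, had 97.4, 84.5 and 89.8 CPM in OIO islets, against 77.7, 69.8 and 84.0 CPM in Control islets. Its lowest OIO library was just above the highest Control library, and the log2 fold change was 0.23 (SE 0.08, edgeR adjusted p = 0.11). The highest value in the module was that of the accessory subunit Ndufa12, at 0.25 (SE 0.10, edgeR adjusted p = 0.18). Ndufv3, chosen for mention after its values were seen, was nearest to the threshold among the members not called (log2 fold change 0.21, SE 0.06, edgeR adjusted p = 0.055). Ndufa2, Ndufa6, Ndufa7, Ndufs4, a gene whose loss in mice is used as a model of Leigh syndrome, and Ndufs6 lay between 0.05 and 0.19.

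Across modules, the 7 core subunits had a median log2 fold change of 0.08 and 0 calls by edgeR, DESeq2 or limma voom. At an unadjusted edgeR p under 0.05, 3 of the 7 were higher, against 11.8% of all genes. The 27 tested accessory subunits had a median of 0.19 and 9 calls. The matrix arm as a whole had 1 call in 16 genes and a median of 0.16, and the membrane arm 8 calls in 18 genes and a median of 0.21. Of all genes tested 4.54% were called higher, and their median was -0.01. These are descriptions, and the difference between arms or between core and accessory genes was not tested. The membrane-arm genes also have shorter transcripts, with a median principal length of 718 bases, against 1078 bases for the matrix arm and 1623 bases for the core subunits. The part of length in the difference between arms was not tested.

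Ndufa4 and Ndufa4l2 match the name pattern but are not stable complex I subunits. Ndufa4, found with cytochrome c oxidase (complex IV), had 124.8, 114.1 and 113.8 CPM in OIO islets, against 87.6, 76.9 and 99.5 CPM in Control islets. The groups did not overlap despite the spread among Control libraries, and the means were 118 ± 6.23 CPM in OIO islets and 88.0 ± 11.3 CPM in Control islets (SD, n = 3 each; log2 fold change 0.42, SE 0.09, edgeR adjusted p = 0.023). Ndufa4l2, its hypoxia-inducible relative, averaged 5.31 ± 0.19 CPM in OIO islets and 5.24 ± 1.02 CPM in Control islets (SD, n = 3 each; log2 fold change 0.02, SE 0.16, edgeR adjusted p = 0.96). Ndufab1, the mitochondrial acyl carrier protein, is a subunit of the complex that the pattern leaves out. It averaged 5.95 ± 0.60 CPM in OIO islets and 5.87 ± 0.76 CPM in Control islets (SD, n = 3 each; log2 fold change 0.03, SE 0.14, edgeR adjusted p = 0.93).

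Read library by library, most members were above the Control mean in each OIO library. Their summed level was 2044, 2095 and 2138 CPM in OIO libraries 1, 2 and 3, against 1793, 1783 and 1877 CPM in Control libraries 1, 2 and 3. Each OIO sum stood above each Control sum, with means of 2093 ± 47.0 CPM in OIO libraries and 1818 ± 51.3 CPM in Control libraries (SD, n = 3 each). Of the 36 members, 33, 35 and 33 were above the Control mean in the OIO libraries, against 15, 14 and 30 in the Control libraries. Control 3 thus stood nearest to the OIO libraries, with a median difference from the Control mean of 0.05 on the log2 scale, against 0.16, 0.15 and 0.22 in OIO 1, 2 and 3. The membrane-arm median was above the matrix-arm median in each OIO library, at 0.20, 0.19 and 0.25 against 0.11, 0.13 and 0.20. The members took 0.204%, 0.206% and 0.204% of the counts in OIO libraries and 0.181%, 0.185% and 0.192% in Control libraries.

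**Figure D3:**
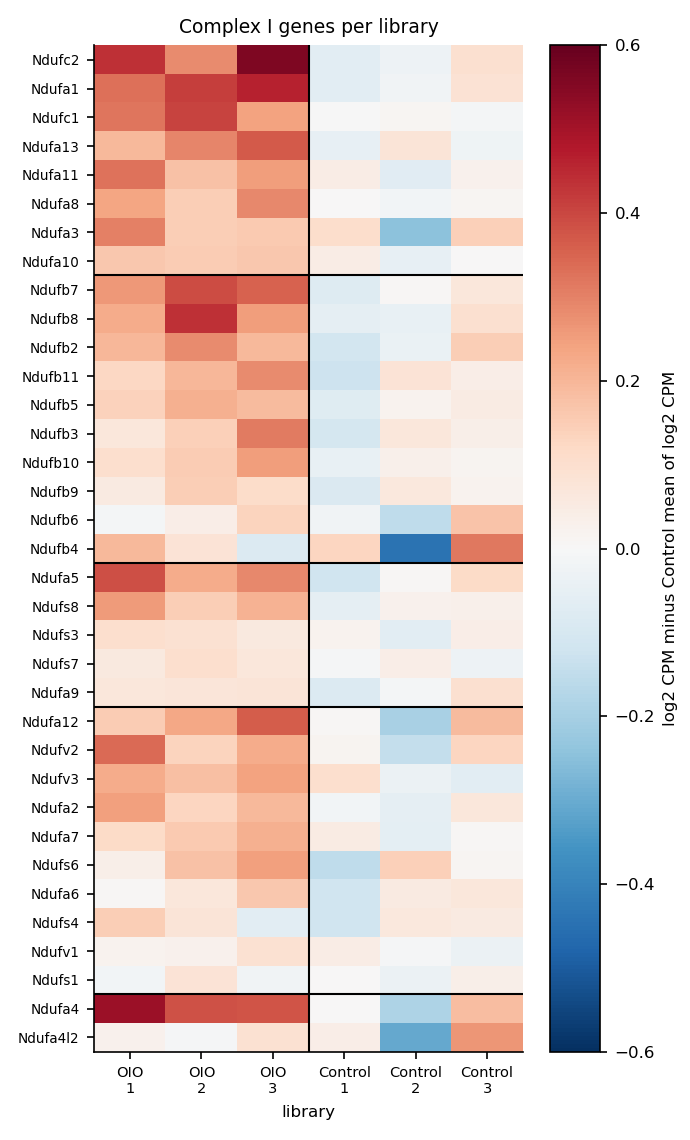
Difference of log2 CPM from the Control mean (colour, red above and blue below) for 35 of the 36 tested genes in each library, OIO libraries left and Control libraries right. Rows are ordered from the top as proximal arm, distal arm, quinone module, NADH module and the 2 genes that are not stable subunits, each by fold change. Red fills most of the 3 OIO columns, and the widest swings among Control libraries are in Ndufb4 and Ndufa4l2, both near 5 CPM.

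Transcript length was set beside fold change because the members are short, with a median principal length of 868 bases, against 2876 bases for all tested genes. With the length of the APPRIS principal transcript in GENCODE M21 (a length chosen after seeing the data), 13.8% of the 290 tested genes of up to 700 bases were higher in OIO islets. The share was 9.78% of 552 genes of 700 to 1000 bases, 5.94% of 1363 genes of 1000 to 1500 bases and 4.03% of 11309 longer genes. The medians of all genes over the same classes were 0.14, 0.10, 0.03 and -0.02 on the log2 scale. The members' medians were 0.22 (13 genes, 6 called), 0.17 (10 genes, 2 called), 0.21 (6 genes, 2 called) and 0.16 (7 genes, 0 called). The members' median lay above that of all genes in each class. The classes were not matched for expression level, and the longest has no upper bound. Whether length accounts for the members' values was not tested. All 3 OIO values exceeded all 3 Control values in 33.1% of all genes of up to 700 bases, more than the 14.1% over all lengths. With the median length of a gene's transcripts, used first, the shares of genes called higher over the 4 classes were 8.88%, 7.09%, 4.82% and 3.68%. That length is a poor measure for some members, such as Ndufs1 with 651 bases against 2590 for its principal transcript. Spearman's rho between length and log2 fold change was -0.30 across the 36 members with the median length and -0.28 with the principal length, against -0.13 and -0.16 across all tested genes with a length. Across tested genes averaging over 20 CPM in both groups, a level that most members reach, it was -0.21 and -0.26. With the longest transcript it was -0.16 across the members, -0.15 across all tested genes and -0.26 across those over 20 CPM. These are across genes, which share libraries and are not independent.

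**Figure D4:**
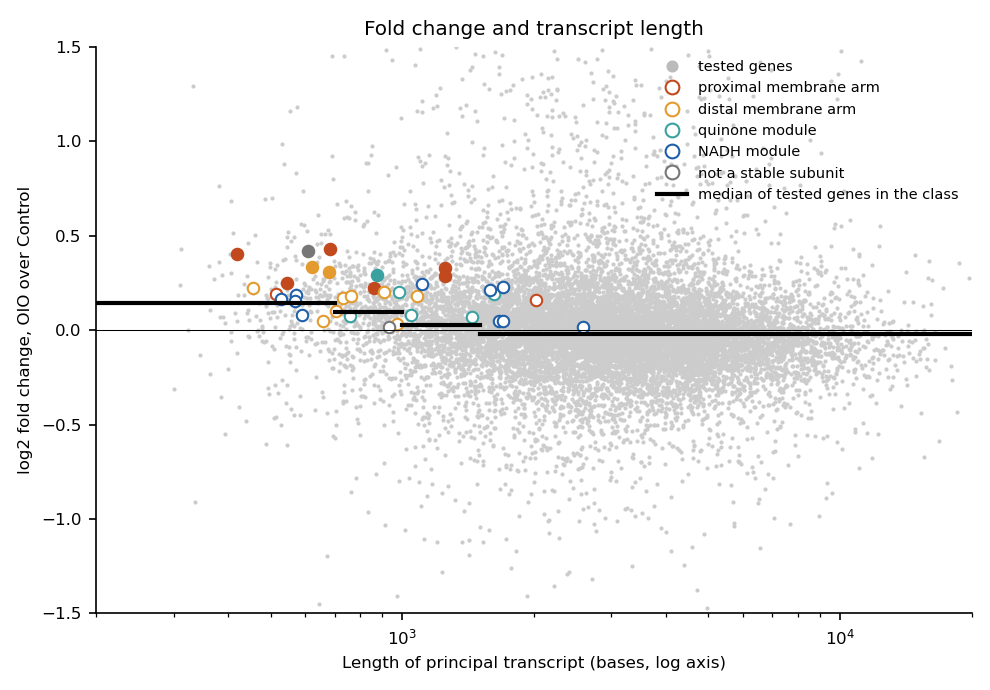
Log2 fold change, OIO over Control, against principal transcript length (bases, log axis) for tested genes (grey) and the complex I genes (coloured by module, filled where called). Black bars are the medians of the tested genes in 4 length classes, from 0.14 in the shortest to -0.02 in the longest. The members' medians in the 4 classes (0.22, 0.17, 0.21 and 0.16) lie above the bars.

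A smooth of expression on length in each library, used as an offset in the same test, lowered the members' values. With the principal length, 3 members stayed called, Ndufa1, Ndufc2 and Ndufa4. The median of the 36 was then 0.10 and 29 were above 0. By module the medians became 0.18 for the proximal arm, 0.08 for the distal arm, 0.07 for the quinone module and 0.03 for the NADH module. The smooth was fitted on all genes, the members included. Scaling by library size alone gave 5 called members, Ndufa1, Ndufc2, Ndufb7, Ndufa13 and Ndufa4, with a median of 0.12 and 30 of 36 above 0. The median of all tested genes was -0.08 with that scaling and -0.02 with the principal-length smooth, against -0.01 with TMM scaling. The direction of the members with the smallest changes, among them Ndufs1, Ndufb4 and Ndufa4l2, turned under the principal-length smooth and under library size alone.

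Levels of different genes were compared per length, as counts over principal transcript length scaled to the same total in each library over the genes with a length (TPM-like). The highest were Ndufa4, at 248 in OIO islets and 202 in Control islets, and Ndufa1, at 243 and 201. Ndufb11 was at 181 in OIO islets and 172 in Control islets. The lowest were Ndufb4, at 6.76 in OIO islets and 7.14 in Control islets, and Ndufa4l2, at 7.30 and 7.83. The median member was at 68.2 in OIO islets and 63.7 in Control islets, and 22 of 36 in OIO islets and 24 of 36 in Control islets lay within 2-fold of it. In the order of levels, 25 of 35 neighbouring pairs overlapped in OIO libraries and 27 of 35 in Control libraries, so most neighbours cannot be ranked. With the median transcript length the median member was at 72.1 in OIO islets and 65.8 in Control islets. This scale moves all genes: the median log2 ratio of OIO over Control was -0.14 for all 13514 genes with a length, and 24.4% had a higher mean in OIO islets. The members' median on it was 0.06, with 25 of 36 higher in OIO islets. All OIO values topped all Control values in 8 members, against 5.06% of all genes. They all lay below in 1, Ndufs1, against 30.4% of all genes. Ndufs1 was at 46.1, 47.7 and 43.1 in OIO islets, against 48.5, 51.0 and 48.4 in Control islets, a difference the CPM scale does not show.

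Other genes of the respiratory chain and of the making of complex I were set beside the members, from lists chosen with earlier results of these data known. Complexes II to V together had 15 of 38 genes higher in OIO islets and 0 lower, against 4.54% and 2.84% of all genes, with a median of 0.24. With the principal-length smooth this became 9 higher, against 3.56% of all genes, and a median of 0.12. The calls were 3 of 9 in complex III, 6 of 10 in complex IV, 6 of 15 in complex V (ATP synthase) and 0 of 4 in complex II. In complex II 2 were higher and 1 lower at an unadjusted edgeR p under 0.05, and DESeq2 and limma voom called 0. At that unadjusted p 11.8% of all genes were higher. Uqcrq, a small ubiquinone-binding subunit of complex III, averaged 77.3 ± 1.67 CPM in OIO islets and 48.1 ± 3.91 CPM in Control islets (SD, n = 3 each; log2 fold change 0.68, edgeR adjusted p = 5.3e-04), more than any complex I member. Uqcr11 and Cyc1, of complex III, were at 0.46 and 0.23. In complex IV the 4 genes of lowest p were Cox6b1 (0.34), Cox5b (0.33), Cox7c (0.38) and Cox7b (0.34), and in complex V Atp5o (0.35), Atp5d (0.30), Atp5b (0.29) and Atp5g1 (0.56), all called higher.

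**Figure D5:**
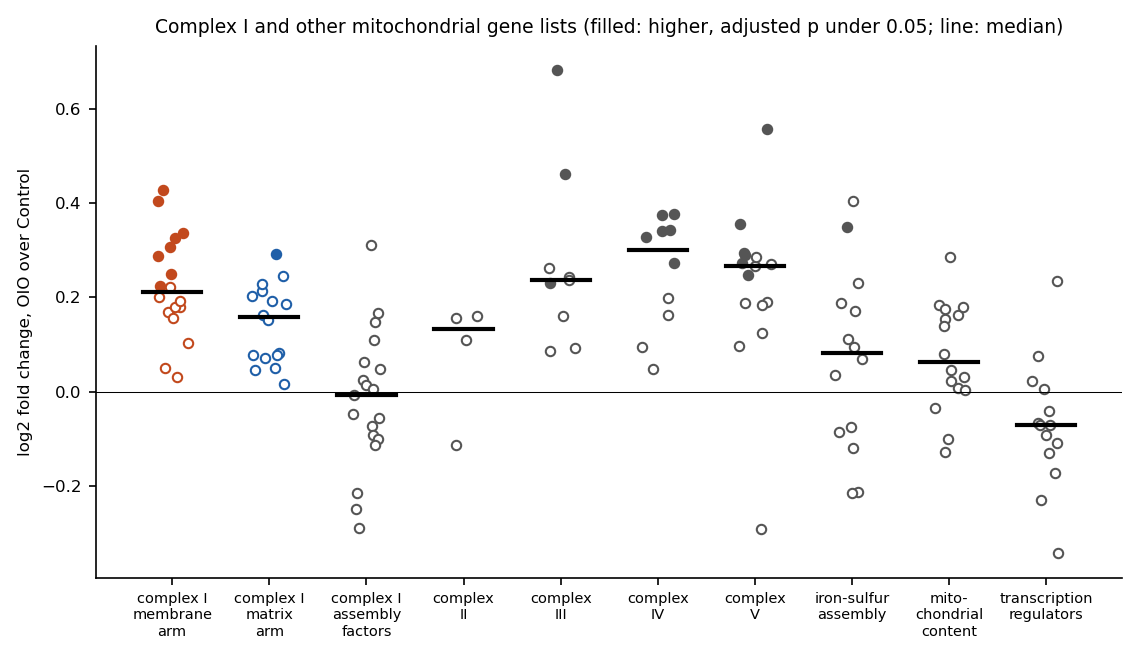
Log2 fold change, OIO over Control, of the complex I genes by arm and of 8 other lists of mitochondrial genes, 1 point per gene, filled where called higher at an adjusted p under 0.05, with the list's median as a bar. The medians of complexes III, IV and V (0.24, 0.30 and 0.27) lie above those of the complex I arms (0.21 and 0.16), and those of the assembly factors and transcription regulators lie below 0.

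Genes that build the complex or act in its transcription were near 0 in the median. At an unadjusted edgeR p under 0.05, 1765 of all 14903 tested genes (11.8%) were higher and 1728 were lower. By edgeR 4.54% of all genes were called higher and 2.84% lower, and DESeq2 and limma voom called 6.06% and 4.29% higher. Of 19 tested assembly factors, 0 were called in either direction by edgeR, DESeq2 or limma voom, 1 was higher and 2 were lower at an unadjusted p under 0.05, and the median was -0.01. Foxred1 (-0.25, edgeR adjusted p = 0.071), Ndufaf2 (0.31, adjusted p = 0.083) and Ndufaf4 (-0.29, adjusted p = 0.095) came nearest. Of 14 regulators of nuclear genes for mitochondria, 0 were called by edgeR, with 0 higher and 2 lower at an unadjusted p under 0.05 and a median of -0.07. DESeq2 called 1 of them lower and limma voom 0. Pprc1, a PGC-1-related coactivator, was at -0.34 (edgeR adjusted p = 0.082), Yy1 at -0.17 (adjusted p = 0.16) and Nrf1 at -0.11 (adjusted p = 0.48). In the iron-sulfur assembly list 1 of 14 tested genes was higher, Bola3 (0.35, edgeR adjusted p = 0.017), and 0 were lower, with 3 higher and 1 lower at an unadjusted p under 0.05, and the median was 0.08. Among 16 markers of mitochondrial content, such as outer-membrane import and carrier proteins, 0 were called by edgeR, 6 were higher and 1 lower at an unadjusted p under 0.05, DESeq2 called 3 higher and limma voom 0, and the median was 0.06. These lists also have longer transcripts. Their median principal lengths were 1604.5 bases for assembly factors, 3134.5 for regulators, 1996.5 for iron-sulfur assembly and 1594.5 for mitochondrial content, against 868 for the members. With the principal-length smooth their medians were -0.07, -0.09, 0.02 and 0.03 in that order, against 0.10 for the members. The gap between these lists and the members, and the part of length in it, was not tested.

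The libraries carried islet markers, and some marker sums moved with the groups. The 8 beta-cell genes, insulin included, summed to 220086 to 241976 CPM in OIO libraries and 168627 to 220007 CPM in Control libraries. The lowest OIO sum was barely above the highest Control sum. Of the 8 genes 4 had a log2 fold change above 0, and the median was -0.03. By edgeR 0 of the 8 were called higher and 1, Slc2a2, lower. The 6 alpha-cell genes summed to 51763 to 61925 CPM in OIO libraries, against 43734 to 79736 CPM in Control libraries, and the 4 delta-cell genes to 3110 to 4010 CPM, against 3184 to 3740 CPM. The summed level of the 2 PP-cell genes was lower in every OIO library (3477 to 5592 CPM, against 6091 to 6483 CPM), as was that of the 4 Schwann-cell genes (23.8 to 28.3 CPM, against 28.7 to 33.1 CPM), and that of the 5 duct genes was higher (212 to 243 CPM, against 185 to 187 CPM). Of these 3 lists Krt7, a duct gene, was the only gene called, and 3 of the 5 duct genes had a log2 fold change above 0. Acinar, leukocyte, endothelial and stromal sums overlapped between groups, acinar genes at 3194 to 7547 CPM in OIO libraries and 2680 to 8743 CPM in Control libraries. The 9 tested of 10 leukocyte genes summed to 166 to 177 CPM in OIO libraries, against 123 to 194 CPM in Control libraries, the 6 endothelial genes to 596 to 679 CPM, against 612 to 623 CPM, and the 6 stromal genes to 145 to 286 CPM, against 179 to 497 CPM. No listed marker was at 0 in all libraries. The part of these shifts in the complex I values was not tested.

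The authors' deposited table of their own comparison, whose direction is not labelled, has the sign of the present fit in 14558 of 14903 genes. In the authors' deposited table, a count of 7 of the 36 members had an adjusted p under 0.05 with a positive fold change, against 3.96% of its genes, and 0 with a negative one. For Ndufa1 the authors' deposited table gives a log2 fold change of 0.41 and an adjusted p of 0.010.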

How the data were processed

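Islet poly(A) RNA of 3 OIO and 3 Control libraries was read. The authors deposited whole-number counts per gene symbol. Per the submitters' processing notes, bcl2fastq, kallisto and limma were used with GRCm38 and mm10; no source used here gives their roles or how kallisto estimates became whole counts. The authors' deposited table holds log2 fold changes, p-values and adjusted p-values, and a score per gene, which was not used further.

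From the counts, edgeR 4.0.16 (R 4.3.3) was run with filterByExpr by group, TMM factors, robust quasi-likelihood fits and Benjamini-Hochberg adjustment over 14903 genes, threshold 0.05, with 4 residual degrees of freedom. The biological coefficient of variation was 10.4%. An exact permutation test of 3 against 3 cannot go below p = 0.1 and was not used. SE is the log2 fold change over the root of F. The test was checked on simulated counts. Alternatives were DESeq2 1.42.0, limma 3.58.1 (voom), other scalings, no filter, no robust fit, leaving out each library, and offsets from a natural spline (4 degrees of freedom, prior count 2) of each library's expression on transcript length, with and without GC content. Lengths came from GENCODE M21, with principal lengths for 13514 tested genes, and shared words are 31 bases long. Named are all called members, the core subunits except 1 that is not reported here, the highest and lowest of each module, Ndufa4, Ndufa4l2 and Ndufab1, and up to 4 genes of lowest p per other list; 5 list symbols were matched through older names. The members and lists were chosen with earlier results of these data known.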

Additional observations from a re-analysis of the deposited data

How the results depend on the processing

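The members called higher numbered 10 in edgeR with TMM scaling. They numbered 5 with library size alone, 5 with the length smooth, 5 with the length and GC smooth, 3 with the principal-transcript length smooth and 3 with the principal-transcript length and GC smooth, the last pair chosen after seeing the data. The share of all tested genes called higher was 4.54% with TMM scaling. In the other settings, in the same order, it was 3.34%, 3.7%, 3.68%, 3.56% and 3.64%. The members' median log2 fold change in those settings, in the same order, was 0.12, 0.14, 0.12, 0.095 and 0.084, against 0.19 with TMM scaling. Leaving out 1 library gave 2 to 7 members and 460 to 817 called genes in all, against 1099; these fits have fewer samples. The other scalings, DESeq2, limma voom, no filter and no robust fit gave 7 to 11 members, against 3.63% to 6.06% of all genes called higher. Ndufc2 was called in 17 of 17 alternatives and Ndufa1 in 16.

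Signs turned in members with small changes, none of them called, and in Ndufab1. With library size alone, Ndufv1 was at -0.019, Ndufs4 at -0.014, Ndufb6 at -0.016, Ndufs1 at -0.048, Ndufb4 at -0.032, Ndufa4l2 at -0.047 and Ndufab1 at -0.039. With the length smooth, Ndufs4 was at -0.0070, Ndufs1 at -0.037, Ndufb4 at -0.024, Ndufa4l2 at -0.037 and Ndufab1 at -0.028. With GC added, Ndufb6 was at -0.017, Ndufs1 at -0.059, Ndufb4 at -0.046, Ndufa4l2 at -0.014 and Ndufab1 at -0.022. With the principal-transcript smooth, Ndufb9 was at -0.0029, Ndufs7 at -0.024, Ndufa6 at -0.044, Ndufb6 at -0.060, Ndufs1 at -0.0026, Ndufb4 at -0.044, Ndufa4l2 at -0.059 and Ndufab1 at -0.021. With GC added to it, Ndufb9 was at -0.010, Ndufs3 at -0.0054, Ndufa6 at -0.063, Ndufb6 at -0.082, Ndufs1 at -0.014, Ndufb4 at -0.066, Ndufa4l2 at -0.034 and Ndufab1 at -0.025. With 1 library left out, Ndufb4 ranged from -0.16 to 0.20, Ndufs1 from -0.011 to 0.045, Ndufab1 from -0.076 to 0.11, Ndufa4l2 from -0.12 to 0.16, Ndufs4 from -0.0059 to 0.12 and Ndufb6 from -0.024 to 0.14. The median of all tested genes was -0.077 with library size alone, against -0.012 with TMM scaling. With the smooths, in the order above, it was -0.025, -0.025, -0.024 and -0.025. The cause of the turned signs was not tested.

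The median level per length in OIO islets was 72.1 with the median transcript, 82.8 with the longest and 68.2 with the principal one, and rho of length and fold change was -0.30, -0.16 and -0.28. No paired analysis was possible because the labels give no shared replicate numbers. Depth does not bound Ndufs5, listed at 0, beyond counting error.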
